A study of Mus musculus with 2 samples.

Results

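Vascular and neural stromal cells without fibrillar collagen were described in the mammary gland of adult FVB/NJ mice, an inbred albino strain. They were chosen by counts: 4 or more counts summed over Igfbp7, Sparcl1, Gsn and Sparc, 3 or fewer over the keratins Krt5, Krt14, Krt8, Krt18 and Krt19, and under 3 over Col1a1, Col3a1 and Dcn. This gate held 75 of the 3302 cells of the total epithelial library (2.27%, exact binomial 95% interval 1.79 to 2.84), of 8073 cells in the series. The series has 1 droplet library of total epithelial cells, sorted as negative for the lineage markers TER119, CD31 and CD45 and positive for CD24 (Lin-CD24+), and 1 library of 4771 basal cells, sorted as Lin-CD29hi CD24+. Both came from untreated, unmodified animals, 8 mice in the whole series, whose cells were pooled and carry no label of the animal. With 1 library per sort there was no replicate and no test between libraries, and every interval below covers counting error alone.

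Endothelial cells line blood and lymph vessels and hold one another through the adhesion proteins Pecam1 (CD31) and Cdh5. Mural cells wrap them: pericytes, marked by Rgs5, Kcnj8 and Vtn, sit on capillaries, and vascular smooth muscle, rich in Acta2 and Myh11, surrounds arterioles and larger vessels. Schwann cells ensheathe peripheral nerve fibres and make myelin proteins such as Mbp. In the mammary gland the myoepithelial (basal) cell layer also makes Acta2, Tagln and Myh11, so these contractile genes alone do not separate vessel muscle from epithelium.

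Depth was low: the 75 cells held 106286 counts of unique molecules together, with 812 in the shallowest cell, 3218 in the deepest and a median of 1281. The other 3227 cells of the library had a median of 2467. For comparison, these other cells were divided by the same 12 gate genes into 49 collagen cells, 1142 basal-keratin cells, 2002 luminal-keratin cells and 34 remaining cells. The 2 libraries shared 28 cell barcodes, and none of the 75 cells was among the 41 cells that Scrublet called doublets. Clustering of the 75 cells without the gate genes gave 6 clusters. By the list of fixed markers most enriched in each, a rule set after the clusters were seen, they were read as 13 endothelial-like cells, 37 contractile cells in 3 clusters, 10 Schwann-like cells and 15 keratin-poor basal-gene cells. The label of vascular and neural cells therefore went against the data for 15 of the 75 members, and the 37 contractile cells are named by their leading genes and not as pericytes, for reasons given with them.

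**Figure D1:**
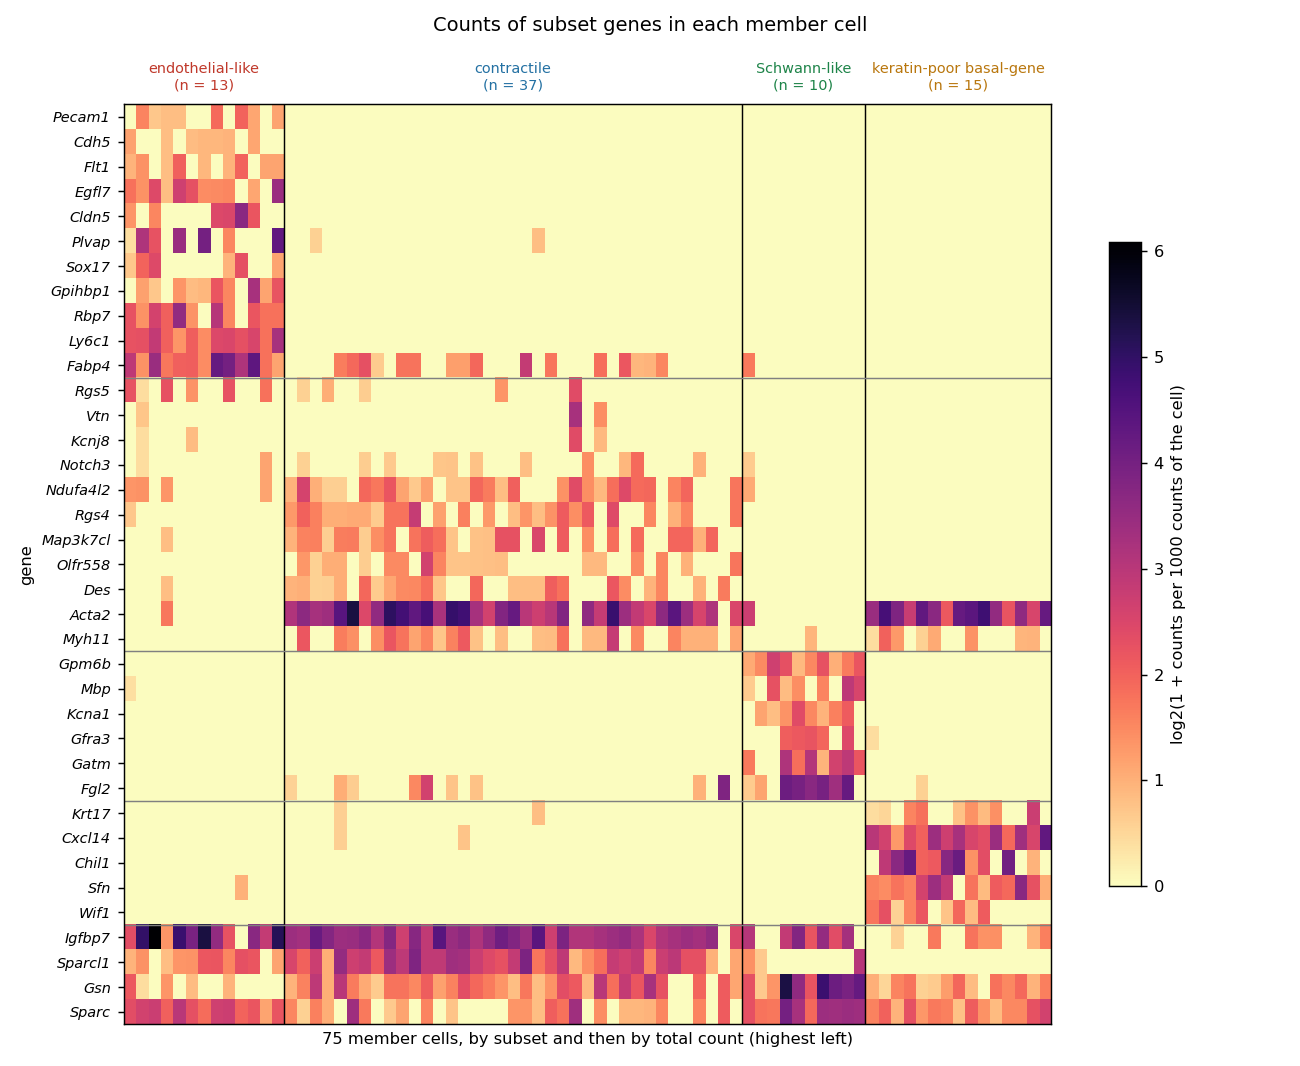
Each column is 1 of the 75 member cells and each row a gene, with colour giving log2(1 + counts per 1000 counts of the cell). The 13 endothelial-like, 37 contractile, 10 Schwann-like and 15 keratin-poor basal-gene cells show blocks of their own genes, and the bottom 4 rows are the gate genes that chose the cells.

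The marker lists differed between the subsets, with some overlap from cell to cell. The summed count of 24 endothelial genes ran from 3 to 77 in the endothelial-like cells (median 31) and from 0 to 4 in the contractile cells, 4 of which reached 3, and was 0 in every Schwann-like cell. The 20 Schwann genes summed to 9 to 28 counts in the Schwann-like cells (median 18) and to at most 2 in the endothelial-like, 1 in the contractile and 4 in the keratin-poor basal-gene cells. The 16 pericyte genes summed to 2 to 34 in the contractile cells (median 9) and to 0 to 31 in the endothelial-like cells (median 1). No cell held 3 or more counts of both the endothelial and the Schwann list. In 10 cells both the endothelial and the pericyte list reached 3 counts, 6 of them endothelial-like and 4 contractile. The genes that defined the clusters describe them here and are not tested against them.

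**Figure D2:**
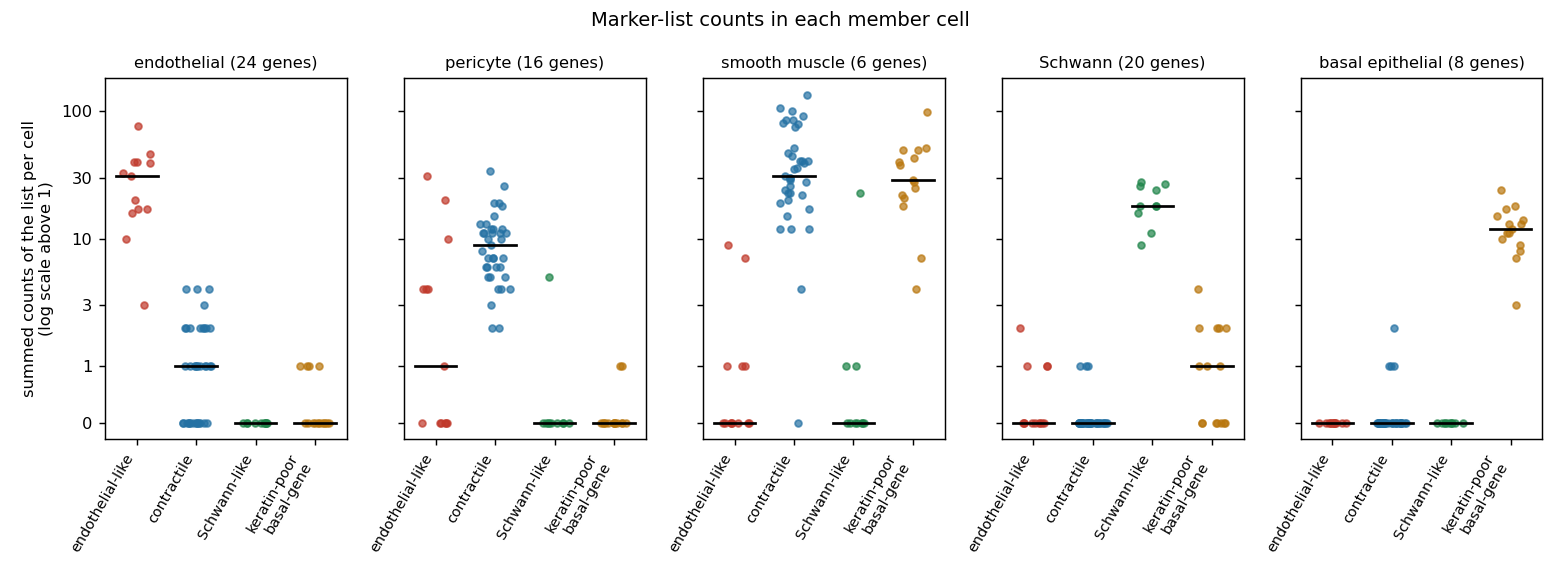
Each point is 1 member cell, its height the summed count of a marker list (log scale above 1), and black bars are medians. Schwann counts of the Schwann-like cells (9 to 28) sit above those of all other members, endothelial counts overlap at their lower end (3 in an endothelial-like cell, up to 4 in contractile cells), pericyte counts overlap between endothelial-like and contractile cells, and smooth muscle counts are as high in the keratin-poor basal-gene cells (median 29) as in the contractile cells (median 31).

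The endothelial-like cells carried the genes of vessel identity although the sort removed cells with surface CD31. Pecam1 (chr11:106654217-106750628, mm10), which encodes CD31, gave 17 counts in 8 of the 13 cells, from 0 to 6 per cell with a median of 1, and 0 counts in the other 62 members. In luminal-keratin cells, an epithelial class that should lack it, 1.15% of cells held a Pecam1 count at a median depth of 3012 counts, against 61.5% here (exact binomial interval 31.6 to 86.1) at a median of 1134. After every cell was thinned to 800 counts, 10 of 2002 luminal-keratin cells and 6 of 13 endothelial-like cells (46.2%) still held a Pecam1 count. Levels below are given as CPM, the counts of a gene in a group scaled to 1000000 counts of that group. Ptprc, the gene of CD45, had 0 counts in the members. Cd24a, the gene of the CD24 antigen that the sort required, gave 21 counts in 13 of the 75 cells, 14 of them in keratin-poor basal-gene cells and 1 in an endothelial-like cell.

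Further endothelial genes followed the same cells. Cdh5, the cadherin of endothelial junctions, gave 10 counts in 7 cells, and the VEGF receptor genes Flt1 and Kdr gave 20 counts in 9 cells and 6 counts in 6 cells. Egfl7, a secreted factor of endothelium, gave 48 counts in 11 of 13 cells, from 0 to 8 per cell with a median of 2. All of these counts lay in the endothelial-like cells and none in another member. The surface proteins Icam2 and Emcn and the factor Sox18 gave 13, 9 and 10 counts, in 6 cells each, and likewise 0 elsewhere among the members. Esam, a junction molecule, was shared, with 37 counts in 11 endothelial-like and 35 in 19 contractile cells. Cldn5, a tight junction protein, was split among them: 33 counts fell in 6 cells, up to 12 in a cell, and the other 7 had 0. Plvap, which forms the diaphragms of fenestrated capillaries, also fell in some cells and not in others, with 78 counts in 7 cells and a highest value of 24.

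Several genes of capillaries and of fatty acid handling were found in most of the endothelial-like cells. Ly6c1 was found in all 13 cells, from 2 to 12 counts with a median of 4, and in none of the other members. Rbp7, a retinoid-binding protein of capillaries of fat and muscle, gave 62 counts in 11 cells (median 3, highest 14). Gpihbp1, which carries lipoprotein lipase to the capillary lumen, gave 26 counts in 10 cells, and 1 count was found in the 3227 other cells of the library. Cd300lg, a molecule of capillary and venular endothelium, gave 23 counts in 9 cells against 3 counts in the other cells (658-fold over all members, interval 199 to 3423). Cd36, a fatty acid transporter, gave 31 counts in 11 cells, and Rgcc gave 67 counts in 11 cells. The remaining genes of the capillary list, Car4 and Aqp1, were found in few of these cells. Car4 reached at most 2 counts and Aqp1 9 in a cell, and Aqp1 also reached 3 counts in a contractile cell. Fabp4, the fatty acid chaperone of fat cells and capillaries, gave 1 to 21 counts in the 13 cells (median 5).

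Venous and lymphatic genes were few in the endothelial-like cells, and arterial genes fell in part of them. Of 7 venous genes 6 were at 0 in the endothelial-like cells, among them Vwf, Selp, Sele and Ackr1, and the list summed to 1 count. At 18561 counts the Poisson interval of a gene at 0 reached 199 CPM, so low levels were not detectable. The 6 lymphatic genes summed to 0 counts in these cells. The 8 arterial genes gave 69 counts in 10 of the 13 cells (median 2, highest 18), and 6 of the 8 were found. Among them Sox17, a transcription factor of arterial endothelium, gave 24 counts in 6 of 13 cells with 9 in the highest, Gja4, a gap junction protein of arteries and smooth muscle, gave 21 counts in 7 cells, and Fbln5, a protein of elastic fibres, gave 18 in 3. Gja4 gave 43 counts in 15 contractile cells as well, so it did not separate the subsets, whereas Sox17 was at 0 in every other member.

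Pericyte RNA appeared in part of the endothelial-like cells. Rgs5, the most used pericyte marker, gave 26 of its 37 member counts here, in 6 cells, and 11 in 5 contractile cells. The 2 endothelial-like cells with most counts, 3218 and 3070, held 20 and 31 counts of the pericyte list beside 46 and 77 of the endothelial list. The other 11 held 23 pericyte-list counts among them and 6 of the 13 held none. Rgs5 was divided otherwise, with 12 counts in the deepest cell, 1 in the next and 13 in the rest. Neither cell was called a doublet, but their Scrublet doublet scores, 0.17 and 0.2014, were the highest among the members. Whether each is 1 cell was not tested.

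The contractile cells were the largest subset and carried smooth muscle genes at a high level. Acta2 (smooth muscle actin) gave 711 counts in 35 of 37 cells, from 0 to 72 with a median of 13, a level of 13752 CPM (Poisson interval 12760 to 14801). Myl9, a myosin light chain, gave 426 counts in 34 cells at 8240 CPM, Tagln gave 336 counts in 35 cells, and Myh11, the smooth muscle myosin, gave 65 counts in 25 cells. Compared with the 1142 basal-keratin cells, Myl9 was higher (2794 CPM there, 2726 to 2863) and Acta2 lower (19948 CPM there). Cnn1, the calponin of smooth muscle, stood lowest beside myoepithelium, at 329 CPM (192 to 526) in contractile cells and 3816 CPM in basal-keratin cells. Cxcl14, a gene of the basal layer that the gate did not use, gave 2 counts in the 37 cells, as did Krt17.

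Genes with little RNA in the epithelium defined the contractile cells more sharply than the actin genes did. Map3k7cl (chr16:87553330-87595336, mm10) gave 81 counts in 26 of the 37 cells, 0 to 6 per cell with a median of 2, and 8 counts in all 3227 other cells. It had the highest CPM ratio of the members over the other cells among all genes considered, 880 (426 to 2106). Olfr558, an olfactory-type receptor gene, gave 40 counts in 20 contractile cells, 0 in other members and 4 in the other cells (858-fold, 310 to 3302). Ndufa4l2, a subunit-like protein of mitochondria and a mural cell marker, gave 81 counts in 28 cells, and Rgs4, a regulator of G protein signals, gave 75 counts in 26. Des (desmin, the muscle intermediate filament) gave 53 counts in 24 cells. Pcp4l1, Mustn1 and Nrip2 gave 40, 45 and 53 counts in 27, 23 and 25 cells.

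Receptors and channels of vessel tone were among them. S1pr3, a receptor for sphingosine 1-phosphate, gave 32 counts in 20 contractile cells. Avpr1a, the vascular vasopressin receptor, gave 32 counts in 8 cells with up to 14 in a cell. The potassium channel genes Kcna5 and Kcne4 gave 19 and 20 counts in 12 and 10 cells. Over all members the CPM ratios to the other cells were 501 for S1pr3 (208 to 1456), 270 for Kcna5 (111 to 748) and 257 for Kcne4 (112 to 663). Rergl, a Ras-like protein, gave 18 counts in 10 contractile cells and 1 count in all other cells of the library outside the gate.

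Kcnj8, Vtn and several other genes of the pericyte list were low, unlike Ndufa4l2, Rgs4, Des and Gm13889 of the same list. These low counts are why the subset carries no pericyte name. Kcnj8 gave 6 counts in 2 of the 37 cells, Vtn 12 counts in 2, and Abcc9, Higd1b and Cox4i2 each gave 3 counts in 3 cells. Cspg4 (NG2) gave 4 counts in 3 cells, Pdgfrb 8 counts in 8 cells and Notch3 14 counts in 11 cells. A single cell differed: it held 10 of the Vtn counts, 5 of Kcnj8, 5 of Rgs5 and 4 of Steap4, 34 pericyte-list counts in all, with 0 counts of Acta2, Tagln and Myh11. Its smooth muscle counts came to 4. Another cell, the only one of this subset with 0 smooth muscle counts, had 2 pericyte-list counts and 12 counts of Fgl2 among 902.

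The 3 contractile clusters, of 16, 11 and 10 cells, shared these genes and differed in others. Rrad, a GTPase that restrains calcium channels, gave 96 counts in 13 of the 16 cells of the first cluster, 4 counts in 3 of 11 cells of the second and 22 in 6 of 10 cells of the third. Avpr1a followed the first cluster with 26 of 32 counts. Mcam (CD146) gave 12 of its 13 contractile counts in 7 cells of the second cluster.

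The third cluster stood apart by immediate-early RNA. Fos gave 318 counts in its 10 cells, 1 to 71 per cell with a median of 32, against medians of 2.5 and 3 in the other contractile clusters. The 10 immediate-early genes summed to a median of 104 counts per cell there (30 to 179), 30 in the first cluster and 39 in the second. The shear-responsive factor Klf2 gave 120 counts in 10 cells, against 42 in 10 of 16 cells and 41 in 11 of 11 cells. Hes1, a Notch target, gave 63 counts in 9 cells against 4 and 16. Acta2 was also highest there, with a median of 27 counts per cell against 14.5 and 12. Immediate-early RNA was not a mark of this cluster alone, since the same 10 genes had a median of 55 in the endothelial-like and 59 in the keratin-poor basal-gene cells. These genes are known to be induced by cell isolation as well as in tissue, and their part in the division of the contractile cells was not tested.

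The Schwann-like cells were the smallest subset. Gpm6b (chrX:166238911-166388988, mm10), a membrane glycoprotein of glia and neurons, gave 30 counts, with 1 to 7 in each of the 10 cells and a median of 2.5, and 0 in the other 65 members. Kcna1, a voltage-gated potassium channel, gave 18 counts in 8 of the cells, up to 5 in a cell with a median of 2, and 0 in the other members. Luminal-keratin cells, which should lack it, held a Kcna1 count in 3 of 2002 cells, and in 2 after thinning to 800 counts, when 7 of the 10 Schwann-like cells still held one.

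Other glial genes followed. Mbp (myelin basic protein) gave 21 counts in 7 cells, Cnp (a myelin enzyme) 21 in 8, Gfra3 (a receptor for the growth factor artemin) 19 in 5 and Matn2 17 in 9. Gatm, the first enzyme of creatine synthesis, gave 40 counts in 8 cells, Aspa, which splits N-acetylaspartate, gave 15 in 7, and Prnp, the prion protein, gave 94 in 9. S100b, Cdh19 and Mal gave 4 counts each in 3 cells. Sox10, a transcription factor that defines Schwann cells, Erbb3 and Foxd3 were at 0 in all members. At 12040 counts the Poisson interval of a gene at 0 reached 306 CPM. Sox10 was at 15.1 CPM in basal-keratin and 20.5 CPM in luminal-keratin cells, so its lack was not detectable as a difference.

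Stromal and immune genes were mixed into the Schwann-like subset. Fgl2, from the fibroblast list, gave 94 counts in 8 of 10 cells, 0 to 21 with a median of 11, and made up most of the 111 fibroblast-list counts there. Lum and Pdgfra, which define fibroblasts, were at 0 in every member. Lyz2, the lysozyme of macrophages, led the subset by fold over the other members, but gave 46 and 25 counts in 2 of the cells and 0 in the other 8. The remaining 11 immune genes, Ptprc, Csf1r, Tyrobp and Fcer1g among them, were at 0 in all members. The 2 cells with Lyz2 held no Gatm count. A further Schwann-like cell held 23 smooth muscle counts and 5 pericyte-list counts beside 11 of the Schwann list, and the other 9 held at most 1 smooth muscle count. The origin of these counts was not tested.

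Cells with Schwann genes lay on both sides of the collagen threshold. Of the 9 members with a collagen sum of 2, the highest allowed, 4 were Schwann-like and 5 keratin-poor basal-gene cells. Outside the gate, 10 of the 49 collagen cells held at least 9 Schwann-list counts, the lowest value of the Schwann-like cells. Their collagen sum had a median of 6.5 (3 to 22) against 29 in the other collagen cells. Gsn, a gate gene that severs actin, was the main gate gene of the Schwann-like cells with 150 counts (median 13 per cell) and was highest in the collagen cells, at 20996 CPM against 12458 CPM.

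The 15 keratin-poor basal-gene cells were led by genes of the basal epithelium. Their endothelial-list counts came to 4 and their Schwann-list counts to 15, in 8 cells, of which 8 were Cnp, and 10 of their 11 lymphatic-list counts were Pdpn (podoplanin). Cxcl14, a chemokine of the basal layer, gave 3 to 21 counts in all 15 cells (median 9), and their 6129 CPM lay above the 4966 CPM of basal-keratin cells (intervals 5178 to 7204 and 4876 to 5058). Acta2 gave 4 to 57 counts in all 15 (median 21). Chil1 gave 155 counts in 11 cells, Sfn (stratifin, an epithelial 14-3-3 protein) 84 in 14, the WNT inhibitor Wif1 38 in 9 and Krt17, a basal keratin outside the gate, 23 in 9. Krt17 was lower than in basal-keratin cells, at 959 CPM (608 to 1439) against 6795. Their Krt14 level, which the gate limited, was 750 CPM. Lcn2, an iron-binding defence protein, and the adhesion molecule Icam1 gave 31 counts in 13 cells and 26 in 12. Luminal genes were fewer, with 44 counts over 18 genes and a median of 2 per cell. All 14 Dcn counts of the members lay in 9 of these cells, whereas the collagen counts of the Schwann-like cells came from Col1a1 (5) and Col3a1 (6).

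Part of this subset passed the gate at its edge. All 3 members with the lowest allowed stromal sum of 4 and 6 of the 7 members with the highest allowed keratin sum of 3 were keratin-poor basal-gene cells. Others of the subset lay inside the thresholds, and 9 remained at a stromal sum of 6 or more. Their stromal sum had a median of 6 (4 to 13), against 26 in both endothelial-like and contractile cells and 29.5 in Schwann-like cells, and came from Sparc (54 counts) and Gsn (33), with 15 of Igfbp7 and 0 of Sparcl1. Ribosomal protein genes took 9.56% of their counts, against 3.91% in endothelial-like, 3.56% in contractile and 2.40% in Schwann-like cells and 8.16% in basal-keratin cells. Around the thresholds, 7 cells missed the gate only by a stromal sum of 3, 12 only by a keratin sum of 4 and 5 only by a collagen sum of 3.

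The markers proposed for these cells did not mark them alike. Igfbp7 (chr5:77349240-77408041, mm10), a secreted vessel wall protein gave 984 counts, 50.9% of the members' counts for the 4 stromal gate genes. It reached 106 counts in an endothelial-like cell (median 13), 34 in a contractile cell (median 13) and 4 in a keratin-poor basal-gene cell (median 0). Sparcl1 (chr5:104079111-104113733), an anti-adhesive matrix protein, was mainly contractile, with 284 of 325 counts in 36 of 37 cells. Fabp4 (chr3:10204088-10208576) gave 118 counts in endothelial-like and 55 in 16 contractile cells. Sox17 (chr1:4490931-4497354) and Ly6c1 (chr15:75044018-75048830) were endothelial alone among the members. Ly6c1 was not particular to them in the library, since 21 of the 49 collagen cells held it at 1355 CPM (1143 to 1594). The 687 CPM of all members together includes the subsets at 0. All 73 member counts of Ly6c1 lay among the 18561 counts of the 13 endothelial-like cells, a higher level than in the collagen cells. Both Igfbp7 and Sparcl1 chose the cells, so their levels are a description.

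**Figure D3:**
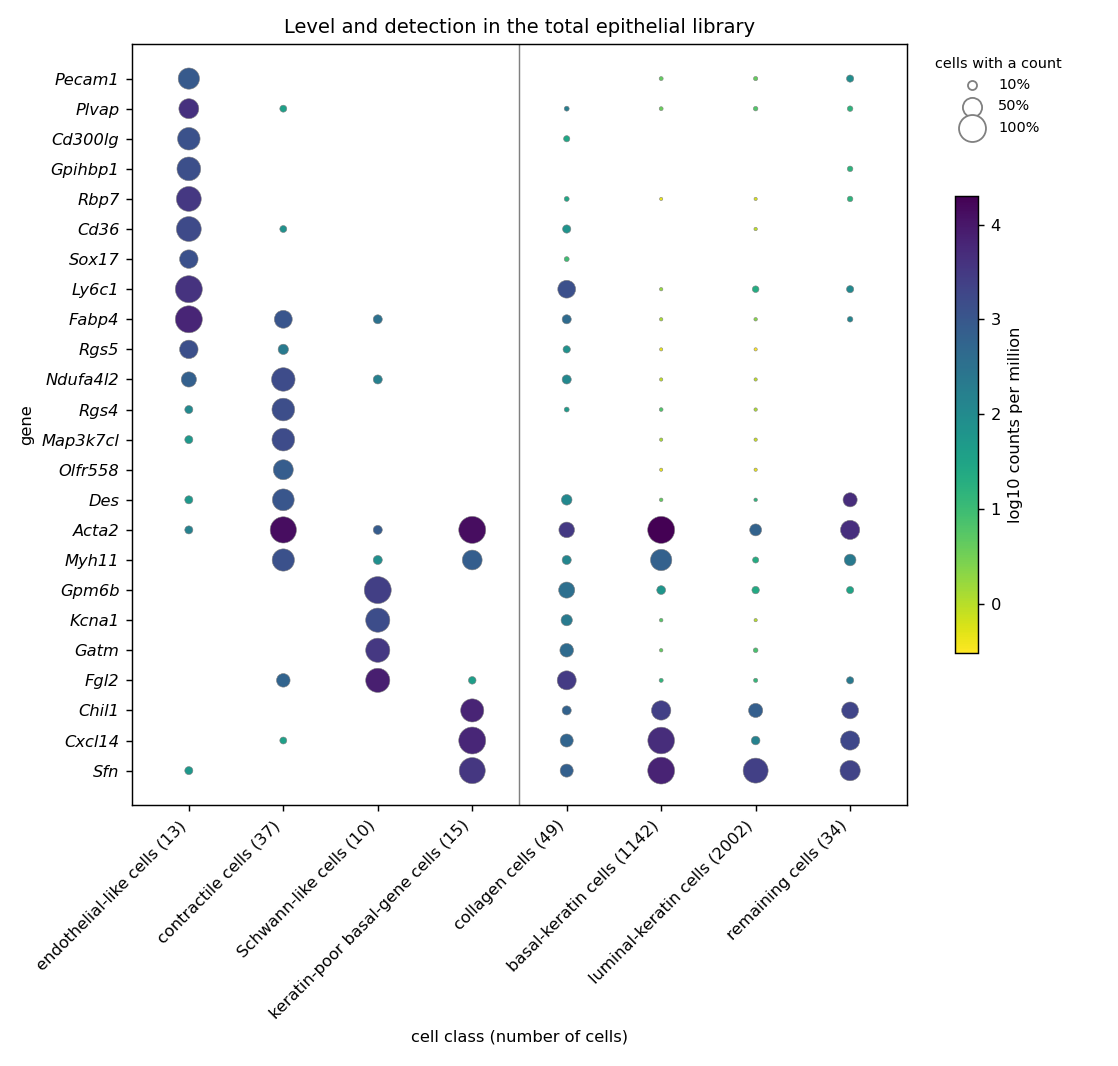
Rows are genes and columns the 4 member subsets and 4 classes of other cells of the total epithelial library, with dot area giving the share of cells with a count and colour log10 CPM (no dot means 0 counts). Most endothelial rows, Map3k7cl and Kcna1 peak in a single member subset, while Ly6c1, Fgl2 and the Schwann genes extend to collagen cells and Acta2, Myh11 and Cxcl14 to basal-keratin cells.

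Across the transcriptome, 3138 genes had a mean of at least 50 CPM over members and other cells, and 228 of them (7.27%) were 4-fold or more higher in the members and 127 (4.05%) lower, with 3 counts standing in for any lower count. Of 24 endothelial genes 11 reached that level and 10 were higher, of 16 pericyte genes 10 and 9, and of 20 Schwann genes 8 and 6. The median log2 ratio was 6.60, 4.71 and 3.61 for these lists and 0.09 over all genes considered. A gene low in epithelium could reach 50 CPM only through the members, so these shares describe the lists and test nothing. Of the 6 smooth muscle genes shared with myoepithelium, 2 were higher, with a median log2 ratio of 1.56. All 13 luminal genes that reached the level were lower, with a median of -5.03, and the rule itself limited the keratins. None of the 10 immediate-early genes was higher or lower by 4-fold, with a median of 0.33.

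Lists of function were read in the same way. For fatty acid uptake 5 of 8 genes reached 50 CPM and all 5 were higher, and 270 of the 345 list counts fell in endothelial-like cells, from 8 to 44 in each. For VEGF and angiopoietin signalling 3 of 13 were considered and higher (the receptor Flt1, its co-receptor Nrp1 with 13 counts and the ligand Pgf with 21), while Vegfa, the main ligand, gave 3 counts, all in keratin-poor basal-gene cells. Angpt2, a ligand that loosens vessels, gave 8 of its 9 counts in contractile cells, and its receptor Tek gave 4 counts, all in endothelial-like cells. For PDGF signalling, by which endothelium recruits mural cells, the ligand Pdgfb was at 0 in all members and Pdgfa gave 42 counts in 24 cells, 26 of them in contractile cells. For Notch signalling 2 of 5 genes considered were higher, Notch3 and Heyl, the latter with 12 of 13 counts in contractile cells. Of 14 endothelial transcription factors 6 were considered and 4 higher (Sox17, Ets1, Mef2c and Epas1). Among these Mef2c gave 37 of its 58 counts in contractile cells and Epas1 14 of 20, so the list did not read endothelium alone.

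Antigen presentation genes had more counts in the endothelial-like than in the contractile cells, with overlap between single cells. The list of leukocyte adhesion and antigen presentation summed to 4 to 69 counts in endothelial-like and 0 to 11 in contractile cells. In keratin-poor basal-gene cells it summed to 3 to 19. H2-D1, a class I heavy chain, gave 243 counts in the 13 endothelial-like cells, 1 to 41 per cell with a median of 15, and 71 counts in 30 of 37 contractile cells (median 2). The Schwann-like cells lay between, with 4 to 20 counts and a median of 9. B2m, its light chain, gave 43 counts in 12 of the former and 13 in 10 of the latter. Ly6e, an interferon-induced surface protein, gave 43 counts in 11 endothelial-like cells, 1 in a contractile cell and 33 in 12 keratin-poor basal-gene cells. Against all other cells neither H2-D1 nor B2m differed by 4-fold in the members as a whole. Basement membrane genes gave 89 counts over 12 genes in the 75 cells. All 3 that reached 50 CPM (Col4a1, Col18a1 and Lamb2) were 4-fold or more higher, with a median log2 ratio of 2.85, against 7.27% of all 3138 genes considered. A gene low in epithelium could reach 50 CPM only through the members, so this describes the list and tests nothing. Cell cycle genes were nearly absent, with 20 counts over 10 genes, 7 of them at 0. Adipocyte and erythroid lists summed to 36 and 1 counts.

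Endothelial RNA was also found outside the gate. Among the 34 remaining cells, 4 held 11 to 21 counts of the endothelial list with a stromal sum of 0. They gave 28 counts of Cldn5, 6 of Pecam1, 6 of Egfl7, 1 of Plvap and 0 of Sox17. The lymphatic markers Mmrn1 and Lyve1, at 0 in the members, gave 10 and 6 counts in them, all 10 Mmrn1 counts of the library. Prox1, the lymphatic master regulator, was at 0. Among the 49 collagen cells, 11 held 3 or more endothelial-list counts, up to 34 in a cell, 110 in all. Of these, 41 were Ramp2, an adrenomedullin receptor subunit, and 20 were Plvap in 1 cell. Luminal-keratin cells held more endothelial-list counts than the members, 1057 against 435, but at a lower level, 159 CPM against 4093. Of the 2002 luminal-keratin cells, 105 held 3 or more, up to 24 in a cell, and 5 did after thinning. Not every cell with endothelial RNA therefore lay within the gate. Pericyte-list RNA also lay outside it. The 34 remaining cells held 335 such counts, up to 103 in a cell, from 4 of the 16 genes. Their level was 5034 CPM, against 3987 in endothelial-like and 7176 in contractile cells. Of all counts in the library, the members held 66.7% for Cdh5, 77.1% for Rgs5, 91.1% for Map3k7cl and 70.8% for Fabp4, but 27.9% for Pecam1 and 29.5% for Kcna1.

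The sorted basal library, chosen for high CD29, was read by whole-library levels, since its cells were shallower (median 487 counts against 2425.5) and the same gate took 471 of its 4771 cells through other genes. There 46.4% of the stromal gate counts were Gsn and 27.9% Sparc, and Igfbp7 gave 9.85%. In the total epithelial library the members held 7.44% of Schwann-list counts and 24.1% of endothelial-list counts. Basal-keratin cells gave 1247 Schwann-list counts there, so whole-library levels do not read Schwann-like cells alone. Schwann genes stood higher in the sorted basal library: Gfra3 was at 25.3 CPM (19.5 to 32.4) against 9.21 (7.36 to 11.4) and Mbp at 53.4 CPM (44.7 to 63.3) against 16.4 (13.9 to 19.2). Pecam1 was at 16.9 CPM (12.2 to 22.8) against 6.61 (5.06 to 8.49), and Cdh5 at 6.43 CPM (3.67 to 10.4) against 1.63. Further endothelial genes went the other way or overlapped: Egfl7 was at 4.42 CPM (2.21 to 7.91) against 13.1 (10.9 to 15.7), Plvap at 7.23 against 16.4, and Rbp7 at 6.43 (3.67 to 10.4) against 7.69 (6.01 to 9.71). Contractile genes differed among themselves, with Olfr558 at 17.7 CPM (12.8 to 23.7) against 4.77 (3.46 to 6.40) and Ndufa4l2 at 5.22 (2.78 to 8.93) against 12.6 (10.4 to 15.1). With 1 library per sort, the sort, the animals and the depth cannot be told apart.

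**Figure D4:**
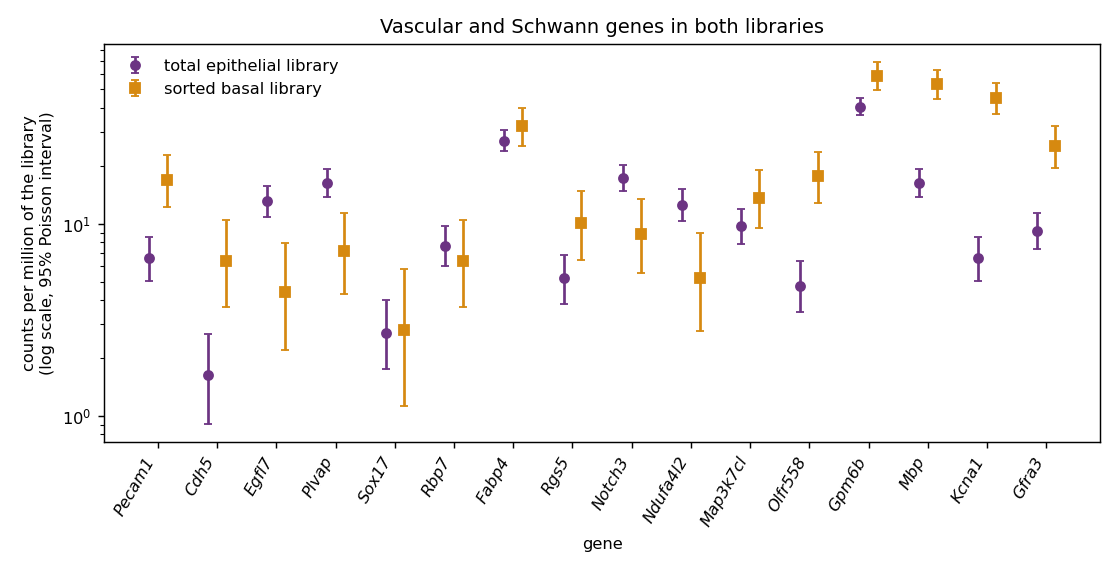
Points give CPM of the whole library on a log axis, with exact Poisson 95% intervals, for endothelial, mural and Schwann genes in both libraries. Pecam1, Cdh5, Olfr558 and the 4 Schwann genes plotted lie higher in the sorted basal library, Egfl7, Plvap, Notch3 and Ndufa4l2 higher in the total epithelial library, and Sox17, Rbp7 and Map3k7cl have overlapping intervals.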

How the data were processed

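Cells from pooled glands of adult mice were captured on the 10X Genomics Chromium system. Reads were processed by the authors with Cell Ranger (version 1.2.1 and build mm10 in the submitters' processing notes, while the study's methods name a later version) and deposited counts of unique molecules per gene and cell, without normalization. The sorted basal library held 2488704 counts in 4771 cells and the total epithelial library 9227651 in 3302 (802 to 12967 per cell). The filter that chose the cells is not given in the sources used here.

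The members and gene lists were chosen with earlier results of these data known. Named genes were the proposed markers, the gate genes, genes of the lists, the 15 genes with the highest ratio of members over other cells (20 or more counts, in 10% or more of members) and the 10 leading genes of each subset. Summed counts were scaled to 1000000 (CPM) with exact Poisson intervals, ratios with exact conditional binomial intervals, and shares of cells with exact binomial (Clopper-Pearson) intervals, all at 95%. A gene was called at a 4-fold difference where its mean was 50 CPM or more, with a floor of 3 counts over the group. Members were clustered in scanpy 1.11.5 (500 variable genes, 10 components, 10 neighbours, leidenalg 0.10.2 at resolution 1) without the 12 gate genes and mitochondrial and ribosomal genes. Each cluster went to the list (endothelial, pericyte, Schwann or basal epithelial) highest relative to all members. Doublets were called with Scrublet at an expected rate of 6%, which marked 1.24% of cells. Thinning drew 800 counts per cell, so no cell of the total epithelial library was left out. Scripts were tested on simulated data. Positions are those of GENCODE release M21 for GRCm38 (mm10), matched by Ensembl ID. The 56 symbols listed for more than 1 gene were left out of the lists. Alternatives changed each gate threshold, the clustering, the filter and the comparison cells. A few genes that the rule named are not reported here.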

Additional observations from a re-analysis of the deposited data

How the results depend on the processing

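Subsets were clustered again under each alternative of the gate and clustering except the gate after thinning to 800 counts, which took 108 members. The 13 endothelial-like cells stayed together in the other settings, except that 11 of them passed the gate with no collagen count allowed, and the contractile and Schwann-like subsets kept their size within 1.5 times except where no collagen count was allowed. Single cells still changed subset. At resolutions of 0.5 and 2 and with 5 neighbours, 1 Schwann-like cell became contractile. The same happened to 1 cell at a stromal sum of 3 or more and at a keratin sum of 6 or fewer. In the other direction, 1 contractile cell became Schwann-like at a keratin sum of 1 or fewer and without members with 3 or more epithelial counts. With no collagen count the 55 members gave 18 endothelial-like cells (11 of the former ones and 7 contractile), 14 contractile, 17 Schwann-like (3 of the former ones and 14 contractile) and 6 keratin-poor basal-gene cells. That last subset followed the gate: it held 9 cells at a stromal sum of 6 or more, 5 at a keratin sum of 1 or fewer, 57 at a keratin sum of 6 or fewer (118 members in all) and, by construction, 0 without members with 3 or more epithelial counts. The number of genes 4-fold higher was 539 with a mean of 20 CPM required and 135 with 100 CPM, and 321 without the keratin-poor basal-gene cells, an alternative chosen after seeing the data. No paired analysis was possible because each sort has 1 library. Depth limits genes at 0, whose Poisson intervals reached 199 CPM in endothelial-like and 306 CPM in Schwann-like cells.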
